A study of Homo sapiens with 15 samples.

Results

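The 10 genes described here encode the contractile apparatus of smooth muscle and were read as markers of a myofibroblast-like state: ACTA2, ACTG2, TAGLN, CNN1, CALD1, TPM1, TPM2, LMOD1, MYLK and MYL9. They were chosen by gene symbol, matched through the Entrez gene numbers of the count table. All 10 were among its 28395 genes. The filter on low counts kept 9 of them among 16740 genes, and ACTG2 was left out of the tests because it had almost no counts.

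The cells were BEAS-2B, an immortalised human bronchial epithelial line, and RNA sequencing was carried out on 15 samples. Exposed cells received polyethylene terephthalate nanoplastics (PET-NPLs) at 50 µg/mL for 24 h, 15 weeks or 30 weeks, and each exposed group had a passage-matched control group without particles. There were 2 control and 2 exposed samples at 24 h, 2 and 2 at 15 weeks, and 3 and 4 at 30 weeks. The 24 h and 15-week samples formed batch 1 and the 30-week samples batch 2, so that time and batch cannot be told apart in any comparison of 30 weeks with an earlier time. Cells at 15 and 30 weeks had been passaged continuously, and nothing states that replicates came from separate cultures, so p-values measure the spread between these samples, which may be technical.

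Total counts ran from 23143202 to 31459990 per sample. Levels are given in CPM, the count of a gene as a share of its library scaled by TMM factors, and 1 CPM corresponds to 23.3 to 33.9 counts, depending on the scaled size of the library. A group of 6 abundant small noncoding RNAs took up 9.75 to 12.9% of each library in batch 1, 22.3 to 31.03% in the 30-week controls and 17.0 to 21.5% in the 30-week exposed cells. Exposed replicate 2 at 30 weeks stood apart from its group, with correlations of log2 CPM of 0.976 to 0.981 with the other three against 0.991 among those.

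In smooth muscle and in myofibroblasts, actin filaments slide along myosin once the regulatory light chain of myosin (MYL9) has been phosphorylated by myosin light chain kinase (MYLK). Tropomyosins (TPM1, TPM2), caldesmon (CALD1), calponin (CNN1) and transgelin (TAGLN) lie along the actin filament and steady or restrain it, and leiomodin 1 (LMOD1) starts new filaments. The alpha (ACTA2) and gamma (ACTG2) smooth muscle actins build the filament itself, and ACTA2 is the usual marker of a myofibroblast. Most of these genes are driven by serum response factor (SRF), which binds a short element called the CArG box together with myocardin in muscle, or with its relatives MRTFA and MRTFB in other cells.

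Several markers of smooth muscle had low counts, as did ACTA2, the usual marker of a myofibroblast. The identity of the cells was not tested. ACTA2 held 5 to 48 counts in any library, CNN1 0 to 11, LMOD1 9 to 98 and ACTG2 0 to 5. Myocardin (MYOCD), which drives the smooth muscle programme, was at 0 in every 30-week library, and the smooth muscle myosin heavy chain MYH11 held 14 to 54 counts there. The other 6 genes, several of which many nonmuscle cells also make, were abundant.

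Divided by the length of 1 reference transcript per gene, the tropomyosins were at the top in every condition. In 24 h controls TPM1 stood at 911 ± 93.6 CPM per kb (SD, n = 2), TPM2 at 356 ± 44.3 and TAGLN at 74.7 ± 7.35. ACTA2, at 0.4004 ± 0.131 CPM per kb, led the 4 genes at the bottom. By 30 weeks the order had turned: in controls TPM2 (455 ± 38.9 CPM per kb, n = 3) lay above TPM1 (209 ± 9.78). MYL9 (42.1 ± 7.17 CPM per kb) and TAGLN (41.5 ± 3.84) overlapped each other there.

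**Figure D1:**
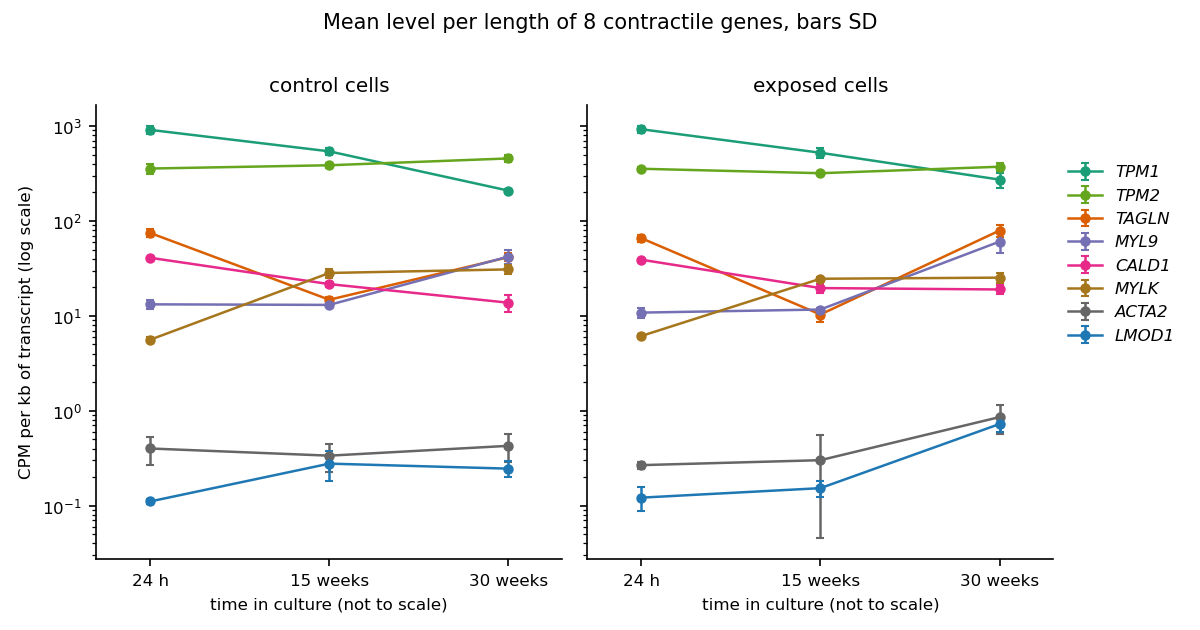
Mean level per transcript length (CPM per kb, log axis) of 8 contractile genes at 24 h, 15 weeks and 30 weeks in control cells (left) and exposed cells (right), with bars for the SD over 2 to 4 samples. TPM1 and TPM2 sit at the top throughout, MYLK rises between 24 h and 15 weeks, and ACTA2 and LMOD1 stay near or below 1 CPM per kb.

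Promoter sequence was read for the element through which SRF acts. RefSeq promoters on GRCh38.p14 (250 bases before to 50 after an annotated start) were found for 8 of the 10 genes, in 13 windows. TAGLN and MYL9 had no entry. The CArG box, searched on both strands, was found without a mismatch in 2 genes, ACTG2 and MYLK, and with at most 1 letter off in 5 (also ACTA2, CALD1 and LMOD1). Counted by window, 2 of the 13 held a box without a mismatch and 6 one with at most 1 letter off. Of all 35116 promoters listed, also counted by window, 1.29% held a box without a mismatch and 18.9% one with at most 1 letter off. These matches describe the letters only, and no binding was measured here.

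The stretches around the boxes of ACTG2, MYLK, ACTA2 and LMOD1 are shown because these genes hold the 3 boxes without a mismatch or had the largest 30-week log2 fold changes. One further box with 1 letter off in each of ACTG2, ACTA2 and LMOD1 is not printed. Each is written 5′ to 3′ on the strand of its gene, with the matching 10 bases in capitals. The ACTG2 stretches are on the plus strand at chr2:73892878-73892927 and chr2:73892915-73892964 and overlap each other. The others lie on the minus strand: MYLK at chr3:123620613-123620662, before a start that lies inside the gene near its 3′ end, ACTA2 at chr10:88952865-88952914 and LMOD1 at chr1:201946704-201946753.
ACTG2, no mismatch, 110 bases before the start: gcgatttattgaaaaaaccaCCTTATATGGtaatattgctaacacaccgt
ACTG2, no mismatch, 73 bases before the start: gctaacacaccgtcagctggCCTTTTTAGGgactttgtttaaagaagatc
MYLK, no mismatch, 94 bases before the start: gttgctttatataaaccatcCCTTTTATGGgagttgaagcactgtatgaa
ACTA2, 1 letter off, 121 bases before the start: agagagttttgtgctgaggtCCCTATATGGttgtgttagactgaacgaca
LMOD1, 1 letter off, 185 bases before the start: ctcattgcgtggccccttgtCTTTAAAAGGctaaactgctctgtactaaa

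**Figure D2:**
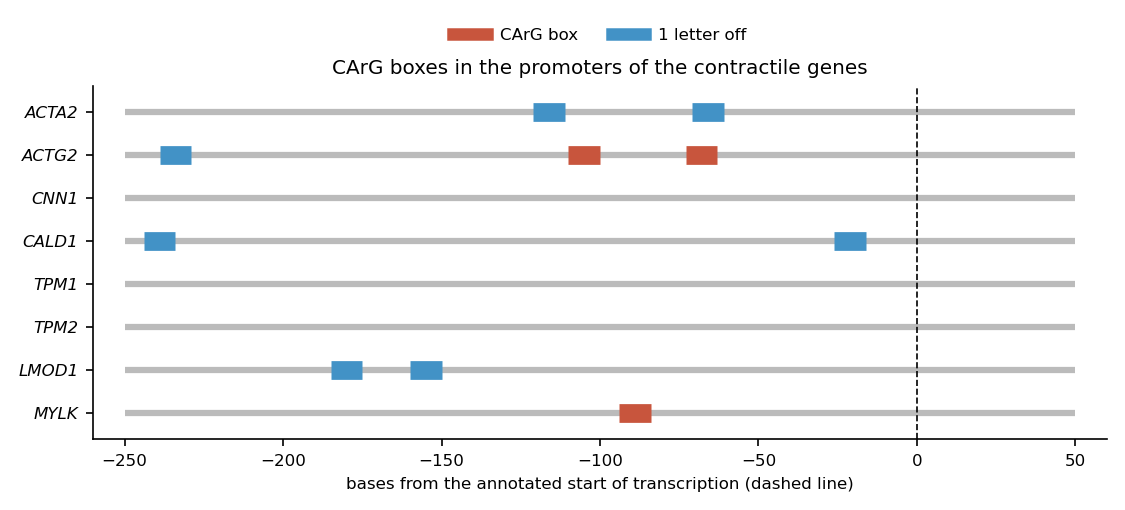
Position of CArG boxes in the promoters of 8 contractile genes, in bases from the annotated start (dashed line); grey bars span the windows searched, red blocks are boxes without a mismatch and blue blocks boxes 1 letter off. A gene with several annotated starts is drawn on 1 line. ACTG2 and MYLK carry the red blocks, and no block appears for CNN1, TPM1 or TPM2.

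After 30 weeks of exposure, 4 of the 9 genes tested were higher than in passage-matched controls: LMOD1, TAGLN, MYL9 and CALD1. None was lower at an adjusted p under 0.05 in edgeR's quasi-likelihood test. Over all genes tested 12.0% were called higher and 11.7% lower. ACTA2, TPM1, TPM2 and MYLK did not pass the threshold, and CNN1 was too low for a fold. The median log2 fold change of the 8 genes with a fold was 0.49, against 0.01 over all genes tested, with 6 values above 0 and 2 below. Exposed and control samples did not overlap for 5 of the 8, and for 27.3% of all genes tested.

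Of the actins, ACTA2 (gene 59, chr10:88935074-88991337, minus strand) held 16, 10 and 19 counts in the 3 control libraries at 30 weeks and 33, 23, 27 and 48 in the 4 exposed ones. Its levels were 0.688, 0.361 and 0.680 CPM against 1.195, 0.806, 0.939 and 1.69 CPM, so that every exposed sample lay above every control. The log2 fold change was 1.01 (SE 0.424), with an edgeR adjusted p of 0.0996 that missed the threshold. It passed in 1 of 16 alternative fits, without exposed replicate 2 (0.0486), and the adjusted p of the others reached 0.278.

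ACTG2 (gene 72, chr2:73893008-73919865, plus strand), normally the actin of visceral smooth muscle, had no count in any of the 8 libraries of 24 h and 15 weeks. At 30 weeks it held 0, 0 and 3 counts in controls and 3, 3, 3 and 5 in exposed cells. These counts lie at or about the limit of 3 that a count of 0 allows. The filter on low counts had left the gene out of the tests, so no fold was given. The coding sequences of the muscle actins are nearly the same, and how reads shared between them were counted is not stated, so values of ACTA2 and ACTG2 are uncertain to that extent. Exons of ACTA2 also overlap FAS and ACTA2-AS1 on the other strand and an unnamed lncRNA on the same strand.

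LMOD1 (gene 25802, chr1:201896456-201946548, minus strand), the filament-starting protein, gave the largest log2 fold change among the 8 genes. Controls at 30 weeks held 18, 27 and 32 counts and exposed cells 98, 67, 79 and 78. In CPM the controls lay at 0.774 to 1.15 and the exposed cells at 2.35 to 3.55, with no overlap and a clear gap between them. The gene was 2.93-fold higher in exposed cells (log2 fold change 1.55, SE 0.263, edgeR adjusted p = 4.56e-04), and the call held in all 16 alternative fits that could test it. Even so its mean was only 2.85 CPM in exposed cells.

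TAGLN (gene 6876, chr11:117199294-117207465, plus strand), an actin cross-linking protein that rises early in smooth muscle differentiation, stood at 173, 156 and 144 CPM in the 30-week controls. In exposed cells it stood at 249, 361, 296 and 293 CPM. The lowest exposed sample was well above the highest control. The gene was 1.91-fold higher (log2 fold change 0.93, SE 0.141, edgeR adjusted p = 1.64e-04), and this call held in all 17 alternative fits at that threshold. Its exons share 2233 bases with PCSK7 on the other strand and 2498 bases with an unnamed gene on the same strand, and whether strand was used in counting is not stated.

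CALD1 (gene 800, chr7:134711499-134970729, plus strand), which restrains actomyosin sliding, stood at 56.1, 83.0 and 67.6 CPM in controls and 97.6, 108, 86.2 and 88.3 CPM in exposed cells at 30 weeks. The groups did not overlap, but the highest control and the lowest exposed sample were close. The gene was 1.38-fold higher (log2 fold change 0.46, SE 0.134, edgeR adjusted p = 0.0195). Without control replicate 1, the library with the most small noncoding RNA, the edgeR adjusted p was 0.102.

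The tropomyosins, which wind along the actin filament, went different ways. TPM1 (gene 7168, chr15:63042747-63071915, plus strand) stood at 256, 264 and 241 CPM in controls and 321, 419, 310 and 276 CPM in exposed cells, all of the latter higher. Its exons share 2645 bases with TPM1-AS on the other strand. The log2 fold change was 0.39 (SE 0.144, edgeR adjusted p = 0.0640), and without exposed replicate 4 the adjusted p was 0.0337. TPM1 was called in 4 of 17 alternative fits, among them DESeq2 (adjusted p = 0.0386) and limma-voom with surrogate variables (adjusted p = 0.0149). TPM2 (gene 7169, chr9:35681993-35690056, minus strand) stood at 574, 489 and 563 CPM in controls and 417, 461, 489 and 405 CPM in exposed cells, where 1 exposed sample overlapped the lowest control. Its log2 fold change was -0.29 (SE 0.116, edgeR adjusted p = 0.0836), with 0.0412 when exposed replicate 2 was left out. TPM2 was called lower in 4 of 17 alternative fits, among them DESeq2 (adjusted p = 0.0270) and limma-voom with surrogate variables (adjusted p = 0.0220).

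CNN1 (gene 1264, chr19:11538851-11550323, plus strand), the calponin restricted to smooth muscle, held 1, 1 and 3 counts in controls and 1, 1, 0 and 1 in exposed cells at 30 weeks. Both groups lay at or under 3 counts per library, and no fold was given.

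Of the pair that governs myosin, the light chain MYL9 (gene 10398, chr20:36541519-36551447, plus strand) stood at 120, 96.1 and 136 CPM in the 30-week controls. It stood at 208, 112, 187 and 168 CPM in exposed cells, where replicate 2 fell inside the control range and the other three above it. The gene was 1.44-fold higher (log2 fold change 0.52, SE 0.175, edgeR adjusted p = 0.0397). This call was lost when any of 5 libraries was left out (control replicate 1 or 2, exposed replicate 1, 3 or 4), with edgeR adjusted p between 0.0641 and 0.156, and it held in 10 of 17 alternative fits.

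The kinase MYLK (gene 4638, chr3:123610049-123884332, minus strand) stood at 305, 283 and 348 CPM in controls and 301, 236, 253 and 231 CPM in exposed cells at 30 weeks. The groups overlapped through exposed replicate 1. The log2 fold change was -0.29 (SE 0.122, edgeR adjusted p = 0.100), and without that replicate the adjusted p was 0.0435. MYLK was called lower in 2 of 17 alternative fits, the other being limma-voom with surrogate variables (adjusted p = 0.0106). The study had placed MYLK on a panel of epithelial-to-mesenchymal transition genes picked on these samples, so its direction is not independent evidence.

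**Figure D3:**
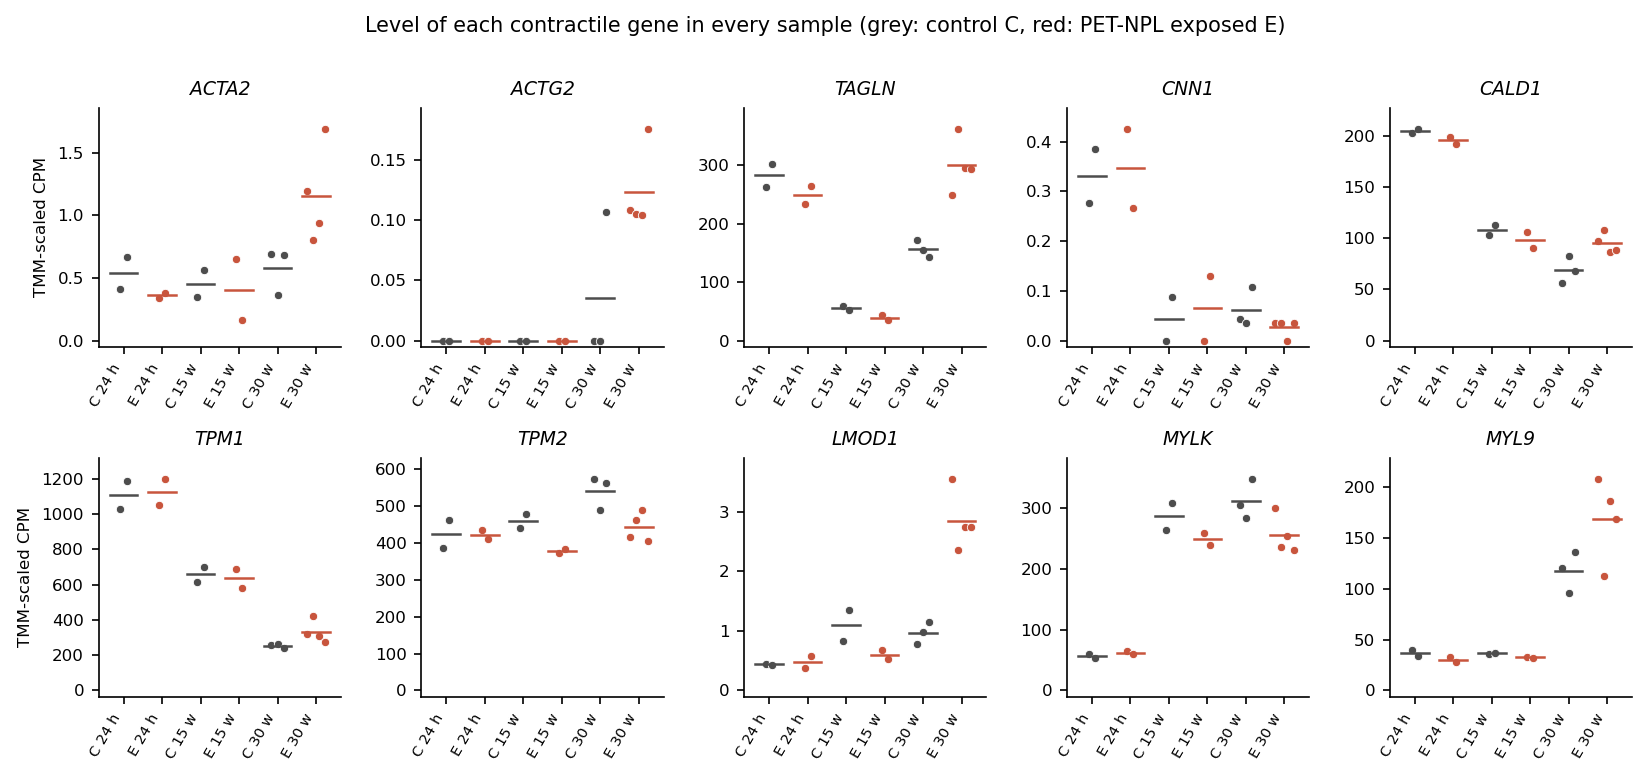
Level (TMM-scaled CPM, linear axes that differ between panels) of each of the 10 genes in all 15 samples, with 1 point per sample and a line at the group mean, grey for control (C) and red for exposed (E). The exposed 30-week samples lie above all 30-week controls for ACTA2, TAGLN, CALD1, TPM1 and LMOD1, and MYLK climbs between 24 h and 15 weeks in both arms.

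At 24 h and at 15 weeks no gene of the 10 was called between exposed and control cells. Over all genes tested 0% were called at 24 h and 0% at 15 weeks by edgeR. Nor did DESeq2 or limma-voom, with or without surrogate variables, call any of these genes at either time. At 24 h none of them reached an unadjusted p under 0.05, and the log2 fold changes of the 9 genes with a fold ran from -0.57 (ACTA2) to 0.14 (LMOD1), with a median of -0.01. The 95% interval at 24 h was -0.54 to 0.17 for TAGLN and -0.40 to 0.27 for CALD1, so changes within these bounds were not excluded.

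At 15 weeks the log2 fold changes of 8 genes were below 0, with a median of -0.18 against 0.01 over all genes tested, and CNN1 was too low for a fold. Those of ACTA2 and TPM1 turned above 0 when some single libraries were left out (up to 0.52 and 0.074). Of these 8, 2 had an unadjusted p under 0.05. TAGLN stood at 59.1 and 52.8 CPM in controls and 43.9 and 34.4 CPM in exposed cells, with a log2 fold change of -0.52 (SE 0.183, edgeR adjusted p = 0.873). LMOD1 stood at 0.821 and 1.36 CPM in controls and 0.682 and 0.519 CPM in exposed cells, on 16 to 46 counts, with a log2 fold change of -0.86 (SE 0.364, edgeR adjusted p = 0.981). With the 15-week groups fitted alone, TAGLN had an adjusted p of 0.0149.

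**Figure D4:**
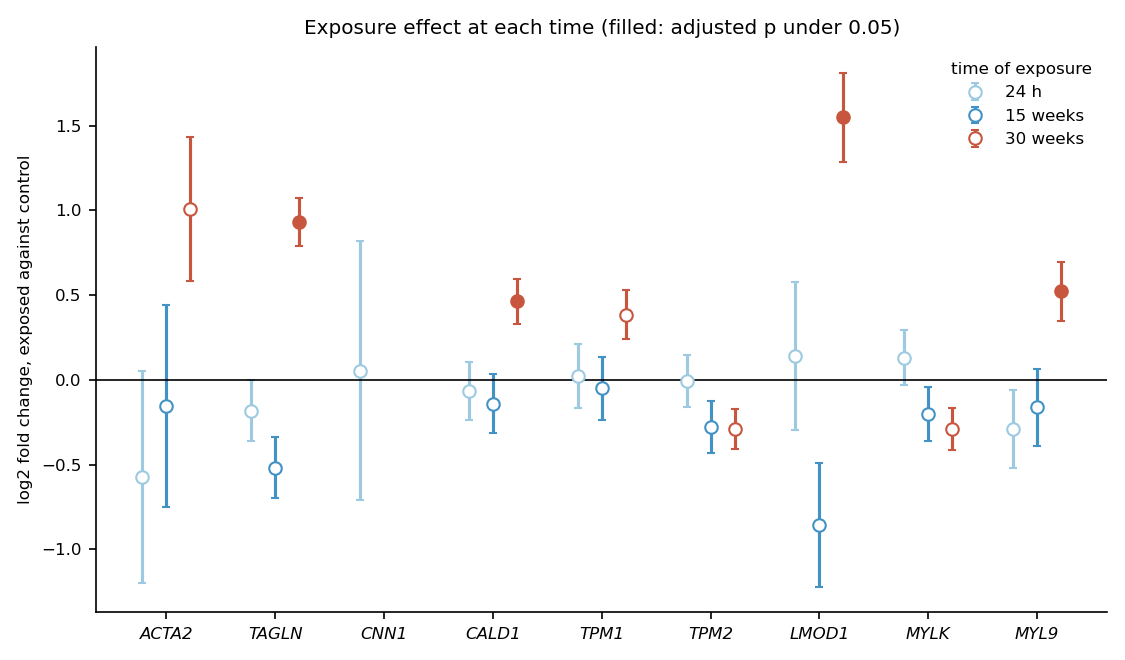
Log2 fold change of exposed against control cells (points, bars SE) for each gene at 24 h, 15 weeks and 30 weeks, where filled points have an adjusted p under 0.05; CNN1 is drawn at 24 h only and ACTG2 is not drawn, since their counts were too low. The 4 filled points are the 30-week values of TAGLN, CALD1, LMOD1 and MYL9, while all 15-week values lie below 0.

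The exposure effect itself was compared between 30 and 15 weeks by an interaction term, each arm being set against controls of its own batch. It was higher at 30 weeks for TAGLN, by 1.45 on the log2 scale (SE 0.230, edgeR adjusted p = 0.00113), and for LMOD1, by 2.40 (SE 0.449, edgeR adjusted p = 0.00404). Over all genes tested 2.66% had a higher and 2.08% a lower effect at 30 weeks. For MYL9 the difference was 0.69 (SE 0.288, edgeR adjusted p = 0.251), and 0.0108 was reached without exposed 30-week replicate 2. For CALD1 it was 0.60 (SE 0.218, edgeR adjusted p = 0.162). The differences of TPM2 (-0.01, 95% interval -0.39 to 0.37) and MYLK (-0.09, 95% interval -0.48 to 0.31) were near 0.

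Several of these genes also shifted with time in culture. Between 24 h and 15 weeks in control cells, within 1 batch, MYLK and LMOD1 rose and TAGLN, CALD1 and TPM1 fell, where 12.7% of all genes tested rose and 12.2% fell. MYLK went from 59.2 and 54.1 CPM to 264 and 308 CPM, 5.05-fold (log2 fold change 2.34, SE 0.169, edgeR adjusted p = 7.10e-08). TAGLN went from 263 and 302 CPM to 59.1 and 52.8 CPM (log2 fold change -2.34, SE 0.190, edgeR adjusted p = 2.51e-07). In both genes the 2 times were far apart and every sample moved alike.

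CALD1 went from 203 and 207 CPM to 103 and 113 CPM over that time (log2 fold change -0.92, SE 0.174, edgeR adjusted p = 0.00104). TPM1 went from 1028 and 1189 CPM to 616 and 700 CPM (log2 fold change -0.75, SE 0.188, edgeR adjusted p = 0.00778), a call lost without control 24 h replicate 2 (0.0733) or control 15-week replicate 1 (0.0864). LMOD1 rose from 0.450 and 0.420 CPM to 0.821 and 1.36 CPM (log2 fold change 1.32, SE 0.386, edgeR adjusted p = 0.0195), and lost its call without either 24 h control or control 15-week replicate 2 (0.0894 to 0.215). CNN1 went from 8 and 11 counts to 0 and 3 (edgeR adjusted p = 0.0545). MYL9, TPM2 and ACTA2 did not pass the test.

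Exposed cells were compared over the same time, with samples of their own. MYLK rose from 64.2 and 59.8 CPM to 258 and 239 CPM (log2 fold change 2.00, SE 0.167, edgeR adjusted p = 3.07e-07), where 13.5% of all genes tested rose and 12.5% fell. TAGLN fell from 234 and 265 CPM to 43.9 and 34.4 CPM (log2 fold change -2.67, SE 0.192, edgeR adjusted p = 7.31e-08). CALD1 (log2 fold change -0.99, SE 0.174) and TPM1 (-0.82, SE 0.189) fell as well, with edgeR adjusted p of 5.19e-04 and 0.00419. The call of TPM1 was lost without exposed 15-week replicate 2 (0.0699). Per length the order of TAGLN and MYLK thus turned in both arms, from 74.7 against 5.60 CPM per kb at 24 h to 14.8 against 28.3 CPM per kb at 15 weeks in controls, and from 65.9 against 6.13 to 10.3 against 24.6 CPM per kb in exposed cells.

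From 15 to 30 weeks, across the batches, TAGLN and MYL9 rose and TPM1 and CALD1 fell in control cells, where 25.6% of all genes tested rose and 24.6% fell. MYL9 went from 35.7 and 37.0 CPM to 96.1 to 136 CPM (log2 fold change 1.69, SE 0.221, edgeR adjusted p = 1.67e-05). TAGLN went up by 1.49 on the log2 scale (SE 0.174, edgeR adjusted p = 6.56e-06), and TPM1 changed by -1.38 (SE 0.169, edgeR adjusted p = 1.01e-05). CALD1 changed by -0.65 (SE 0.156, edgeR adjusted p = 0.00262).

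In exposed cells TAGLN, MYL9, LMOD1 and ACTA2 rose and TPM1 fell over that interval, where 23.3% of all genes tested rose and 22.7% fell. TAGLN changed by 2.94 (SE 0.183, edgeR adjusted p = 1.34e-07), MYL9 by 2.38 (SE 0.222, edgeR adjusted p = 2.44e-06), LMOD1 by 2.23 (SE 0.321, edgeR adjusted p = 6.42e-05) and TPM1 by -0.94 (SE 0.158, edgeR adjusted p = 2.16e-04), all on the log2 scale. ACTA2 changed by 1.49 (SE 0.501, edgeR adjusted p = 0.0234), and lost its call without exposed 15-week replicate 2 (0.263), without exposed 30-week replicate 4 (0.0631) or with the compared groups fitted alone (0.0550). Across the batches, TAGLN levels of exposed cells at 30 weeks (249 to 361 CPM) overlapped those at 24 h (234 and 265 CPM), whereas in controls the 30-week samples (144 to 173 CPM) lay below the 24 h samples. Neither comparison was tested.

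Across the 6 conditions ACTA2, TAGLN, MYL9 and LMOD1 had their highest mean in the 30-week exposed cells. For TAGLN that group overlapped the 24 h controls, and for MYL9 the 30-week controls, whereas for ACTA2 and LMOD1 it stood clear of the next condition. CALD1 and TPM1 were highest at 24 h and TPM2 and MYLK in the 30-week controls. MYLK overlapped between neighbouring conditions in all 4 groups of 15 and 30 weeks.

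The relatives of these genes and the rest of the contraction pathway were then examined at 30 weeks, against the 12.0% higher and 11.7% lower over all genes tested. Of 14 paralogues tested, TAGLN2, a transgelin of nonmuscle cells, rose (648 ± 38.7 CPM in 4 exposed against 518 ± 51.2 in 3 control samples, edgeR adjusted p = 0.0494). The cardiac actin ACTC1 was lower in exposed cells (1.03 ± 0.490 against 10.3 ± 0.369 CPM, edgeR adjusted p = 1.16e-06). So was the nonmuscle calponin CNN3 (298 ± 31.4 against 377 ± 29.2 CPM, edgeR adjusted p = 0.0413). Mean ACTC1 was 1.01 CPM in controls and 1.26 CPM in exposed cells at 24 h. At 15 weeks it was 0.856 and 1.84 CPM, so that only the 30-week controls stood high. The nonmuscle actins ACTB and ACTG1 did not pass the test, with log2 fold changes of 0.04 (SE 0.168) and -0.21 (SE 0.170).

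Among 12 genes of myosin and of light chain phosphorylation, 2 rose and 1 fell, which is near the share over all genes. The nonmuscle myosin heavy chain MYH10 stood at 126 ± 21.0 CPM in exposed and 59.9 ± 12.9 CPM in control cells (edgeR adjusted p = 8.57e-05). ROCK2, a kinase that keeps the light chain phosphorylated by acting on its phosphatase, rose (103 ± 11.8 against 80.2 ± 12.6 CPM, edgeR adjusted p = 0.0471), and DAPK3, a kinase of the light chain, fell (69.2 ± 2.65 against 108 ± 18.2 CPM, edgeR adjusted p = 0.00121). MYH9 and RHOA had log2 fold changes of -0.07 (SE 0.2201) and -0.02 (SE 0.109).

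Of SRF and its cofactors, 1 of 6 tested rose, again near the share over all genes: the Hippo effector YAP1 (94.5 ± 11.9 against 64.0 ± 6.58 CPM, edgeR adjusted p = 0.00508). SRF itself changed by -0.07 (SE 0.143, edgeR adjusted p = 0.755) and MRTFA by -0.24 (SE 0.189, edgeR adjusted p = 0.384) on the log2 scale, neither passing the test. Among 11 cytoskeletal targets of SRF and its partners 3 rose and none fell: the matricellular gene CCN2 (220 ± 39.4 against 96.0 ± 17.1 CPM, edgeR adjusted p = 2.81e-05), FHL2 (123 ± 10.9 against 90.2 ± 7.78 CPM, edgeR adjusted p = 0.00706) and the myosin MYO1E (67.8 ± 6.13 against 52.8 ± 3.74 CPM, edgeR adjusted p = 0.0188).

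Other markers of smooth muscle did not share 1 direction. Of 13 tested, 3 were higher and 4 lower in exposed than in control cells, and their median log2 fold change was -0.04. FHL1 (56.5 ± 7.43 against 43.9 ± 1.77 CPM, edgeR adjusted p = 0.0388), PGM5 (0.484 ± 0.189 against 0.134 ± 0.0789 CPM, edgeR adjusted p = 0.0138) and PPP1R14A, an inhibitor of myosin phosphatase (0.317 ± 0.101 against 0.0526 ± 0.0289 CPM, edgeR adjusted p = 0.0120), were higher. PGM5 rested on 1 to 5 counts per control library and 10 to 22 per exposed library. PPP1R14A rested on 1 to 2 and 5 to 12 counts. RAMP1 (34.5 ± 3.55 against 79.5 ± 17.2 CPM) and PDLIM3 (1.36 ± 0.322 against 10.7 ± 1.73 CPM) were lower. So were SYNPO2 (0.151 ± 0.0554 against 4.06 ± 0.658 CPM) and the muscle filament gene DES (0.0875 ± 0.0882 against 1.68 ± 0.189 CPM). The edgeR adjusted p of these 4 ran from 1.35e-07 to 3.80e-04. At 15 weeks, in the other batch, control and exposed means were 16.9 and 12.6 CPM for RAMP1 and 0.951 and 0.619 CPM for PDLIM3. They were 0.312 and 0.368 CPM for SYNPO2, and 0 in both arms for DES. All 4 genes thus stood higher in the later controls than in the 15-week controls. The mean of later exposed cells lay above their 15-week mean for RAMP1, PDLIM3 and DES and below it for SYNPO2. DES rested on 0 to 6 counts in 30-week exposed cells, and SYNPO2 on 3 to 6 there and 7 to 16 in 15-week exposed cells. PDLIM3, SYNPO2 and DES are also made by skeletal muscle.

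The matrix side of a myofibroblast was mixed too. Of 15 matrix and surface genes tested 5 rose and 2 fell, with a median log2 fold change of 0.22. LRRC15 (34.3 ± 5.35 against 10.3 ± 0.930 CPM, edgeR adjusted p = 3.07e-07), fibronectin FN1 (546 ± 134 against 115 ± 19.7 CPM, 4.07e-07), tenascin TNC (263 ± 57.6 against 70.0 ± 13.1 CPM, 1.51e-06), COL1A2 and POSTN rose. COL1A1, which pairs with COL1A2 in type I collagen, fell (7.36 ± 1.88 against 55.3 ± 33.8 CPM, edgeR adjusted p = 3.02e-05), and CTHRC1 fell from 5.79 ± 1.59 CPM to 2.04 ± 0.766 CPM. FAP and PDGFRA lay below 1 CPM in both groups. TNC and COL1A1 were on the study's panel of epithelial-to-mesenchymal transition genes, and FN1 on its lung cancer panel. Both panels were filtered on these samples, so the directions of TNC, COL1A1 and FN1 are not independent evidence.

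**Figure D5:**
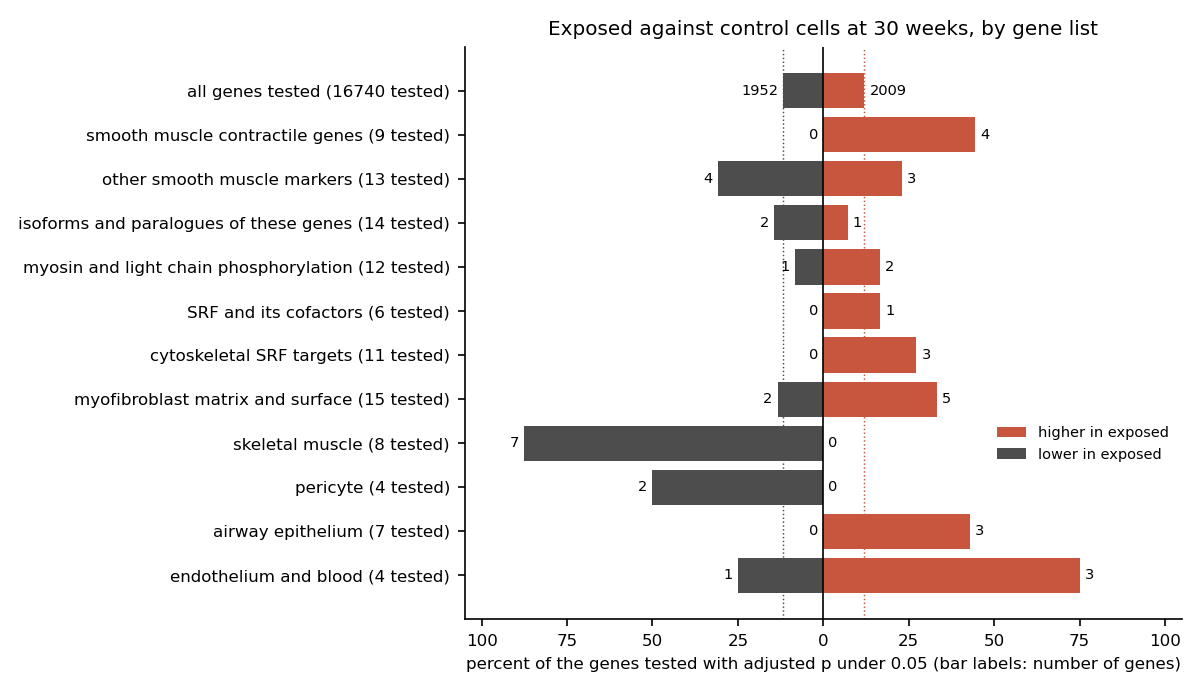
Percent of the genes tested in each list that were higher (right, red) or lower (left, grey) in exposed than in control cells at 30 weeks at an adjusted p under 0.05, with the number of genes at each bar and dotted lines at the percent over all genes. The contractile genes show 4 higher and 0 lower, and the skeletal muscle list 0 higher and 7 lower.

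Markers of other cell types moved at the same time. Of 8 skeletal muscle genes tested 7 were lower in exposed cells, and the summed level of the 14 listed genes was 344 to 439 CPM in the 30-week controls, 33.2 to 44.8 CPM in the 30-week exposed cells and 17.7 to 42.8 CPM at 24 h and 15 weeks in either arm. The myogenic factor MYOD1 stood at 85.3 ± 20.03 CPM in those controls against 0.462 ± 0.210 CPM in exposed cells (edgeR adjusted p = 7.55e-10), and MYF5 and MYF6 were at 0 in both. The 30-week controls are the reference for every 30-week contrast above, and the part of this shift in the contractile gene results was not tested.

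Of 7 airway epithelial genes tested, 3 keratins were higher in exposed cells: KRT8 (616 ± 70.4 against 150 ± 32.1 CPM), KRT18 (338 ± 30.0 against 194 ± 22.0 CPM) and KRT19 (2.88 ± 0.813 against 0.766 ± 0.369 CPM), with edgeR adjusted p from 1.29e-07 to 6.64e-04. KRT19 was on the study's lung cancer panel, filtered on these samples, so its direction is not independent evidence. The summed level of the 10 listed genes was 2125 to 2462 CPM in controls and 2365 to 2382 CPM in exposed cells at 24 h. At 15 weeks it was 856 to 899 CPM in controls and 826 to 1036 CPM in exposed cells. It was 314 to 412 CPM in controls and 881 to 1097 CPM in exposed cells at 30 weeks, in the other batch. KRT5 was at 0, KRT14 and TP63 held at most 1 count, and CDH1, the cadherin that defines epithelium, held 11 to 19 counts there, so that the epithelial label rested on KRT8 and KRT18.

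Of 4 pericyte genes tested MCAM and NOTCH3 were lower, with summed levels of 306 to 426 CPM in controls and 248 to 335 CPM in exposed cells, and ABCC9 and KCNJ8 were at 0. Of 4 endothelial and blood genes tested VWF, CDH5 and KDR were higher and CD68 lower. The summed level of the 7 listed genes was 24.3 to 31.3 CPM in controls and 14.05 to 19.6 CPM in exposed cells. VWF, CDH5 and KDR together thus held no more than that. The part of these cell type markers in the contractile gene results was not tested.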

How the data were processed

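Total RNA of BEAS-2B cells was depleted of ribosomal RNA, prepared with a stranded kit and sequenced in pairs. Per the methods, the authors used Rfastp for trimming, GRCh38 for mapping, and made the deposited raw read counts per gene with Rsubread (featureCounts). The strand setting and the handling of reads with several matches are not given in the sources used here. Depth was 23143202 to 31459990 counts in the 15 samples. Symbols were matched through Entrez numbers for 27745 of 28395 genes.

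Counts were tested with edgeR 4.0.16 in R 4.3.3 (filterByExpr over the 6 groups, TMM, glmQLFit with 1 mean per group, Benjamini-Hochberg adjustment over 16740 genes, threshold 0.05). Spread is the SD, and 95% intervals are normal intervals from the SE. A fold was withheld where both groups had means of at most 3 counts, a limit that covers counting error only. Lengths for CPM per kb are those of the MANE Select transcript (GENCODE v44), and only 1 transcript per gene is taken into account. Gene positions and promoters come from RefSeq on GRCh38.p14.

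Alternatives were DESeq2 1.42.0, limma-voom 3.58.1 without and with 2 surrogate variables from sva 3.50.0, other filters, scalings, thresholds and sample sets, and a replicate block. The edgeR test was checked on simulated counts with large changes planted in well-counted genes. That check does not cover low-count genes such as ACTA2 and LMOD1, or smaller changes. Named genes are all 10 members and, of each other list, the genes past the threshold at 30 weeks (at most 4 by smallest adjusted p, plus those needed to state a count of 5 or fewer, and markers at or near 0); a few others without a call were named after their values were seen. The members and lists were chosen with earlier results of these data known.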

Additional observations from a re-analysis of the deposited data

Results flagged for a closer look

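The exposure effect at 30 weeks exceeded that at 15 weeks by 1.45 on the log2 scale for TAGLN and by 2.40 for LMOD1, both past the threshold of the interaction test in edgeR (adjusted p = 0.00113 and 0.00404). Each effect was taken within its own batch. At 15 weeks neither gene was called, with log2 fold changes of -0.52 and -0.86.

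In the 30-week exposed cells, ACTG2 held 5 counts in replicate 4 against 3, 3 and 3 in the others, a gap in CPM of 0.939 of the whole range, above Dixon's critical value for 4 samples. With 3 tied counts this ratio is near its maximum whatever the fourth count is, so nothing is read from it.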

How the results depend on the processing

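Of the 4 genes called at 30 weeks, TAGLN and LMOD1 kept their call in all alternative fits that tested them, whereas CALD1 and MYL9 lost it when the 30-week groups were fitted alone (2 genes called; the cause was not tested), and MYL9 also under upper-quartile scaling, where TPM2 was called lower. The count at 30 weeks was 2 at an adjusted p under 0.01, 1 (LMOD1) with a fold of at least 2, 6 with DESeq2 and 7 with limma-voom and 2 surrogate variables (TPM1 higher, MYLK and TPM2 lower in addition). Leaving out 1 library gave 2 (without control replicate 1) to 6 (without exposed replicate 2). At 15 weeks 1 gene, TAGLN, was called lower with its groups fitted alone. With at least 10 counts in every sample, which drops ACTA2, CNN1 and LMOD1, 1 gene differed in effect between the times and 3 changed in exposed cells from 15 to 30 weeks. Of the 13115 genes tested in that setting, 584 differed in effect and 7148 changed in exposed cells. With a fold of at least 2, 3 genes changed from 24 h to 15 weeks in control and 2 in exposed cells. The share over all genes was not counted with that fold cutoff or at an adjusted p under 0.01, so those counts have no background beside them. Without a fold cutoff, 5 genes were called in controls over that time. In fits that left 1 sample in a group, the log2 fold change of LMOD1 was 0.91 without control 15-week replicate 2. It was 1.37 without control 24 h replicate 1, and that of TPM1 was -0.64 without control 24 h replicate 2. CNN1 was called lower there, in both arms, by limma-voom (adjusted p = 0.0297 and 0.0341).

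Over all genes, 3961 were called at 30 weeks, with 2370 when the groups were fitted alone, 2491 without control replicate 1, 4436 by DESeq2, 5665 by limma-voom with surrogate variables and 5704 without exposed replicate 2. At 15 weeks 0 were called by edgeR, 18 by DESeq2 and 304 with the groups fitted alone. Where 1 sample was left in a group, it was assumed to vary like those of the other groups.

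Values near 0 turned direction without 1 library: at 24 h, log2 fold changes ran from -0.31 to 0.36 for CNN1, -0.18 to 0.38 for LMOD1, -0.083 to 0.13 for TPM1 and -0.13 to 0.12 for TPM2. At 15 weeks they ran from -1.46 to 0.52 for ACTA2 and -0.18 to 0.074 for TPM1, whose value with surrogate variables was 0.0085. The differences between times ran from -0.20 to 0.016 for MYLK and -0.082 to 0.041 for TPM2. None of these was called.

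Deviations of same-numbered samples correlated at -0.06 at 24 h, 0.03 at 15 weeks and -0.12, 0.30 and 0.10 at 30 weeks. Groups of 2 samples give only 1 value per time, so this cannot show whether replicate numbers pair the samples. With the replicate block, 5 genes were called at 30 weeks (TPM1 in addition), where 3334 of all 16740 genes tested were called. The difference between times for TPM2 was then 0.028, and no other call of the exposed against control comparisons changed. Comparisons across times could not be fitted with the block. With legacy off in glmQLFit, an alternative chosen after seeing the data, the count at 30 weeks was 4, with 4101 over all genes tested. At 1 CPM a gene rested on 23.3 to 33.9 counts, which limits what could be seen for ACTA2, LMOD1, CNN1 and ACTG2.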

Other observations

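Single genes of the wider SRF and smooth muscle lists also changed with time in control cells, in both directions. From 24 h to 15 weeks, 3 of 11 cytoskeletal targets of SRF fell and 1 rose, where 12.2% of all genes tested fell and 12.7% rose. The actin cross-linkers ACTN1 (400 ± 42.1 to 138 ± 13.5 CPM, SD, n = 2 each, edgeR adjusted p = 3.08e-04) and FLNA (3227 ± 266 to 1652 ± 148 CPM, edgeR adjusted p = 0.00935) fell, as did FHL2 (edgeR adjusted p = 0.0107), and FILIP1L rose (52.4 ± 3.37 to 84.9 ± 9.35 CPM, edgeR adjusted p = 0.00933). Of 13 other smooth muscle markers, SVIL, CSRP1, PDLIM7 and TGFB1I1 fell and RAMP1 and PDLIM3 rose. SVIL, which ties myosin to the membrane, went from 50.2 ± 3.56 to 17.8 ± 2.20 CPM (edgeR adjusted p = 4.40e-06), and CSRP1, a LIM protein of smooth muscle, from 312 ± 23.1 to 120 ± 6.04 CPM (edgeR adjusted p = 3.89e-05). Among SRF and its cofactors, YAP1 and its partner TEAD1 fell (edgeR adjusted p = 0.0359 and 0.0380). These genes were named after their values were seen, and the 15-week cells had been passaged for longer than the 24 h cells.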
